A study of Mus musculus with 8 samples.

Results

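The mRNAs described here encode the factors that start and extend protein synthesis. Members were all array gene names beginning Eif1 to Eif6, Eef1 or Eef2, without the Argonaute genes that carry the older prefix Eif2c, and each gene was represented by its brightest probe. The rule found 55 of the 27949 gene names on the array, with 120 probes. A probe was tested if the scanner software put it well above background on all arrays of 1 or more groups. This held for 53 members, and 51 passed on each of the 8 arrays. Eef1a2, the elongation factor form of muscle and nerve, was well above background on 0 of 8 arrays. Eif2b3, a subunit of the eIF2B complex, was well above background on 1 input array, and neither was tested. Older array names were replaced for 13 eIF members, which are given here by the current symbol of the same accession. The array has no name beginning Eif6 under this rule; the gene now called Eif6 is treated with the other genes of the pathway.

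Translation starts when eIF2, bound to GTP and the initiator tRNA, loads the small ribosomal subunit together with eIF1, eIF1A, eIF3 and eIF5. The eIF4F complex joins this assembly to the capped end of an mRNA, partly through the bridge from its scaffold eIF4G to poly(A)-binding protein, and eIF5B brings in the large subunit. The elongation factors eEF1 and eEF2 then deliver aminoacyl-tRNAs and move the ribosome along. Many of the elongation factor mRNAs begin with a cytosine followed by a run of pyrimidines, the 5′ terminal oligopyrimidine (TOP) motif, through which growth signals from the kinase mTOR control their translation.

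RNA came from Dazl-GFP, a re-derived transgenic mouse embryonic stem (ES) cell line, on γ-irradiated feeder fibroblasts. All cells were grown with 15% serum, leukemia inhibitory factor, 1 µM of the MEK inhibitor PD0325901 and 3 µM of the GSK3β inhibitor CHIR99021. The groups were 3 inputs (no antibody), 2 native RNA immunoprecipitations (IPs) with anti-PABP1, the poly(A)-binding protein, and 3 with anti-GFP. The study asked which RNAs DAZL, a germ-cell RNA-binding protein, binds. Whether GFP is fused to DAZL in this line is not given in the labels, and a control-antibody IP is not part of the data analysed here.

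Levels are log2 intensities minus the 75th percentile of the array, so 0 is the 75th percentile, and a difference of 1 is a doubling. Each probe has its own brightness, so a level is compared only with the same probe on other arrays. A gene was called where limma's adjusted p was under 0.05 over 14745 tested genes. On this scale the median gene was 0.51 lower in the GFP IP than in input and 0.24 higher in the PABP1 IP, and it was 0.67 lower in the GFP IP than in the PABP1 IP. Between 41.5% and 52.6% of spots were well above background, and 0 spots were saturated. The Dazl probe was 3.81 ± 0.21 (SE) higher in the GFP IP than in input and 1.70 ± 0.23 lower in the PABP1 IP. All 10 ES cell markers were detected on each of the 8 arrays. In the GFP IP 6 of them were higher and 2 lower than in input, where 21.5% and 43.3% of all tested genes were. In the PABP1 IP 4 were higher and 1 lower, beside 34.3% and 25.3% of all tested genes. Of 17 feeder fibroblast markers, the GFP IP was below input for 13 and above it for 0. In the PABP1 IP 8 were higher and 2 lower than in input. The GFP IP was below the PABP1 IP for 15 of the 17 and above it for 1, beside 47.4% and 23.9% of all tested genes. The summed linear level of those markers, in units of the array's 75th percentile, was 144 to 189 in the inputs, 245 to 256 in the PABP1 IPs and 54.0 to 79.8 in the GFP IPs. For the ES cell markers it was 2203 to 4185 in the inputs, 2028 to 3938 in the PABP1 IPs and 1482 to 2008 in the GFP IPs. The brightest probes weigh most in such sums. These were Dppa5a among the ES cell markers (−1.32 in the GFP IP) and, in the PABP1 IPs, S100a4 among the feeder markers (1.53 above input there). Of the 17, all arrays detected 13 in the inputs, 17 in the PABP1 IPs and 16 in the GFP IPs. Inputs and IPs are bulk RNA, so the cell type that an RNA came from cannot be told. The part of feeder RNA in the results below was not tested. The 8 arrays lay on 2 slides that each held all 3 groups, but not evenly. Slide 1 held inputs 1 and 2, PABP1 IP 1 and GFP IP 2. Slide 2 held input 3, PABP1 IP 2 and GFP IPs 1 and 3. The main fit did not include the slide, and counts with the slide as a block are given at the end. Nothing in the labels says that replicates were separate cultures, and the p-values then reflect only the spread between these samples, possibly a technical one.

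Factor mRNAs lay on both sides of input in the GFP IP. Eef1e1, Eif1b and Eif1a were between 5.14-fold and 14.2-fold higher than in input, whereas Eif5b was 7.44-fold lower, and 10 of 12 eIF3 subunits and all 4 tested eIF2B subunits were lower. In total 14 of the 53 tested members were higher, 27 were lower and 12 were not called. Over all tested genes, 21.5% were higher and 43.3% lower. The member median of −0.50 lay at the median of all tested genes, −0.51, and 2 of the 27 lower members were above that median gene. Input and GFP IP arrays did not overlap for 43 of the 53 members, where 69.3% of all tested genes did not overlap. The split depends on the scaling: with arrays scaled to their medians, 20 members were higher and 14 lower. Such scaling shifts every gene of an array alike, members and others. Shares of all tested genes are given only for the main fit. Counts under other settings, here and below, therefore have no such share beside them.

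In the PABP1 IP, 19 members were higher than in input and 14 lower, and 20 were not called. Among all tested genes 34.3% were higher and 25.3% lower, and the member median was 0.21 beside 0.24 for all genes. Eef1e1, Eef1a1 and Eif3i were between 4.30-fold and 7.94-fold higher, and Eif5b was 25.9-fold lower. The count of lower members fell to 8 without PABP1 IP replicate 2 and to 7 within the second slide alone. Under quantile normalization 14 were higher and 21 lower. Arrays did not overlap for 40 members, and for 70.8% of all tested genes.

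The GFP and PABP1 comparisons share the 3 inputs, so the calls are set side by side only. There were 6 members higher in both IPs than in input (Eef1a1, Eef1e1, Eif1a, Eif1b, Eif4ebp2 and Eif5a) and 8 were lower in both. Another 3 were higher in the GFP IP and lower in the PABP1 IP (Eif2ak1, Eif2s3x and Eif5), and 9 were lower in the GFP IP and higher in the PABP1 IP. The shares of all tested genes in these joint classes were not counted, so the counts only list the members.

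**Figure D1:**
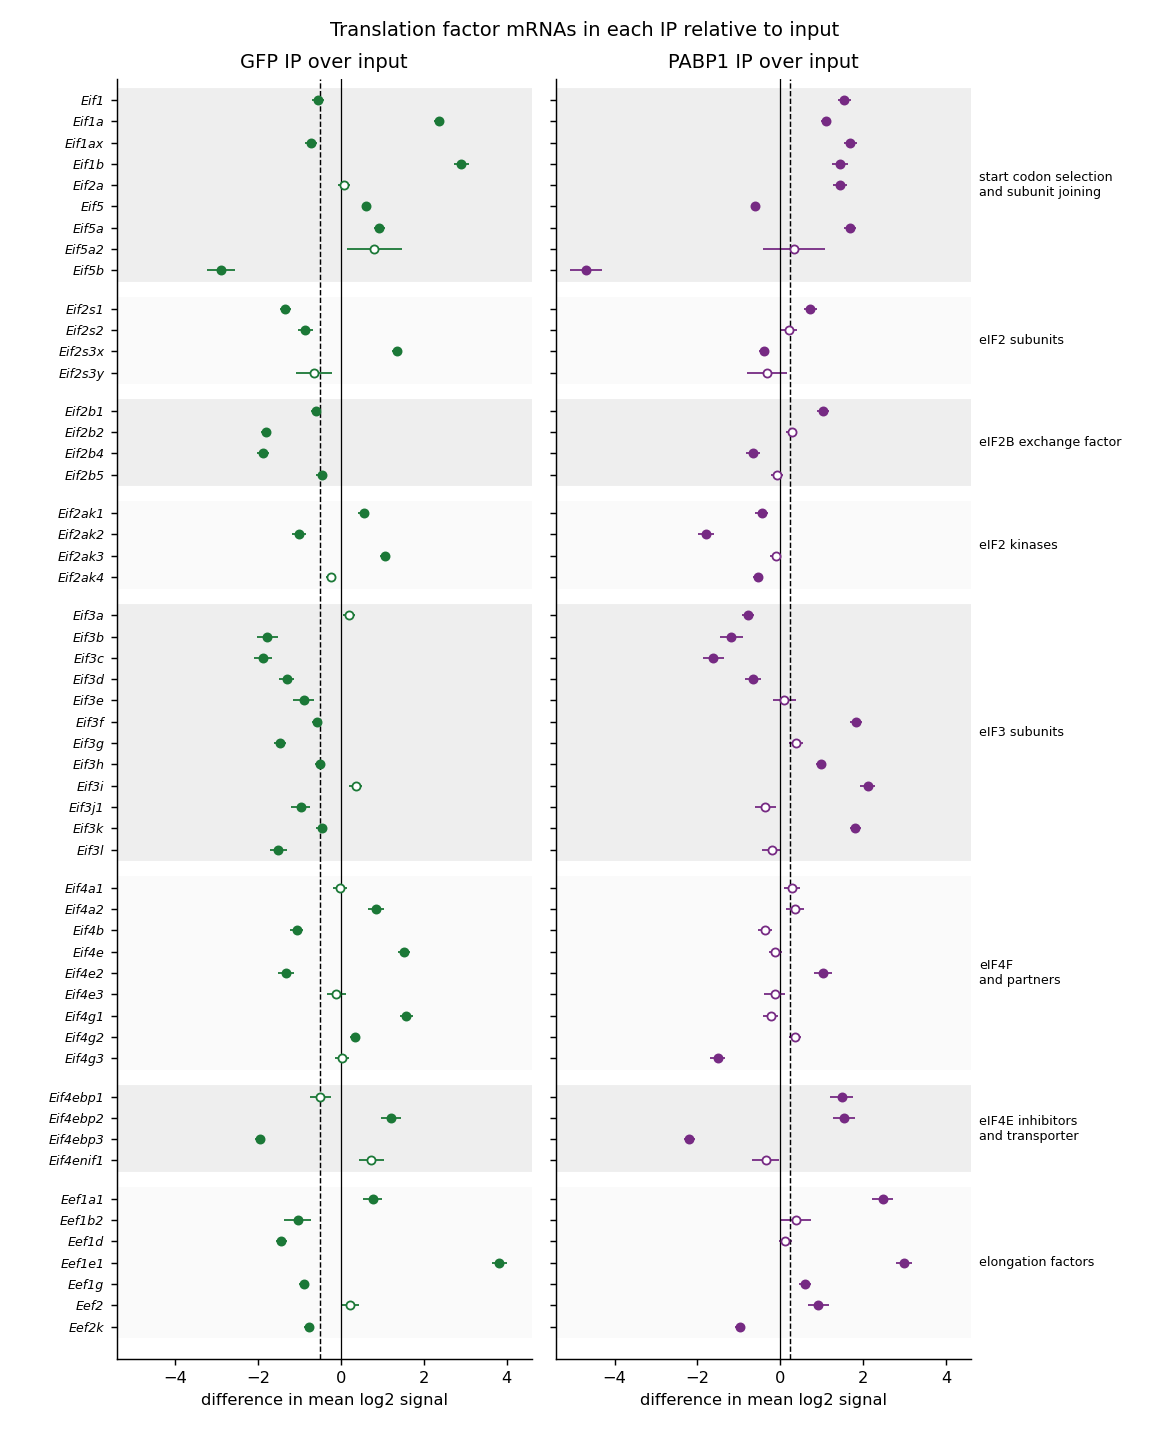
Difference in mean log2 signal between each IP and input for the 53 tested members, ordered by role, with bars of 1 standard error. Filled points had an adjusted p under 0.05, the solid line marks 0 and the dashed line the median tested gene (−0.51 in the GFP IP, 0.24 in the PABP1 IP); Eef1e1 lies farthest right and Eif5b farthest left in both panels.

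Among the factors for start codon selection and subunit joining, 4 of 9 were higher and 3 lower in the GFP IP than in input, and 6 were higher and 2 lower in the PABP1 IP. Over all tested genes the shares were 21.5% and 43.3% in the GFP IP, and 34.3% and 25.3% in the PABP1 IP, for this and each role below. Eif1b, a close relative of the start-codon fidelity factor Eif1, read 2.95, 2.86 and 2.43 in the inputs, 4.29 and 4.07 in the PABP1 IPs and 5.71, 5.80 and 5.46 in the GFP IPs. The 3 groups did not overlap, with the GFP IPs highest. Its difference from input was 2.91 ± 0.18 in the GFP IP (7.50-fold, adjusted p = 2.86e-05) and 1.44 ± 0.20 in the PABP1 IP (adjusted p = 0.00069). Eif1 itself read 6.79, 6.72 and 7.0 in the inputs, 8.25 and 8.51 in the PABP1 IPs and 6.47, 6.12 and 6.30 in the GFP IPs. It was therefore highest in the PABP1 IPs and lowest in the GFP IPs, at 1.55 ± 0.17 above input (adjusted p = 0.000204) and 0.54 ± 0.15 below input (a difference of −0.54, adjusted p = 0.0147). The GFP call for Eif1 was lost when arrays were scaled to their medians (−0.0090) and under quantile normalization (−0.079).

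The gene pair for eIF1A, which helps the small subunit scan for the start codon, gave a like contrast on its brightest probes. Eif1a read 2.20, 1.98 and 1.98 in the inputs, 3.08 and 3.23 in the PABP1 IPs and 4.44, 4.43 and 4.38 in the GFP IPs. The GFP IPs stood highest, 2.36 ± 0.11 above input (5.14-fold, adjusted p = 1.79e-05), and a second probe gave 2.17. Eif1ax, the X-linked copy, read 5.0, 4.84 and 4.63 in the inputs, 6.63 and 6.38 in the PABP1 IPs and 4.06, 4.17 and 4.06 in the GFP IPs. This probe was 1.69 ± 0.15 above input in the PABP1 IP (adjusted p = 0.000104) and had a difference of −0.72 ± 0.14 in the GFP IP (adjusted p = 0.00292), but the other detected Eif1ax probe was 1.44 higher in the GFP IP. The mean of its probes in the GFP IP was 0.36 above input, so the GFP direction for Eif1ax depends on the probe.

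Eif5b, the GTPase of subunit joining, had the lowest difference from input of the 53 tested members in both IPs. It read 4.66, 4.63 and 4.34 in the inputs, −0.26 and −0.04 in the PABP1 IPs, and 0.85, 2.28 and 1.83 in the GFP IPs. No arrays overlapped between groups, and the GFP IPs were the most spread. The differences were −4.70 ± 0.38 for the PABP1 IP (25.9-fold lower, adjusted p = 6.65e-05) and −2.90 ± 0.34 for the GFP IP (7.44-fold lower, adjusted p = 0.000325). The other 4 Eif5b probes were also lower, by values from −0.80 to −3.12 in the GFP IP and from −1.24 to −5.74 in the PABP1 IP. The direction is therefore shared by 5 of 5 probes and its size is not.

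Eif5 triggers GTP hydrolysis by eIF2, and its chosen probe lay on opposite sides of input in the IPs. It read 3.20, 3.18 and 3.23 in the inputs, 2.58 and 2.60 in the PABP1 IPs and 3.81, 3.79 and 3.83 in the GFP IPs, with replicates close together and no overlap. The differences were 0.61 ± 0.09 in the GFP IP (adjusted p = 0.00117) and −0.61 ± 0.11 in the PABP1 IP (adjusted p = 0.00199). A second probe gave 1.34 and −0.26, but another, well above background on 7 arrays, was lower in both (−1.06 and −1.98). Eif5a, a factor that helps stalled ribosomes along proline-rich stretches, read 5.78, 5.75 and 5.54 in the inputs, 7.47 and 7.28 in the PABP1 IPs and 6.76, 6.46 and 6.63 in the GFP IPs. It was higher in both IPs, by 1.68 ± 0.15 (PABP1, adjusted p = 9.51e-05) and 0.92 ± 0.13 (GFP, adjusted p = 0.000826), and a second probe gave 2.18 and 1.23. Eif2a, an alternative initiator-tRNA factor distinct from eIF2, was 1.44 ± 0.16 above input in the PABP1 IP, with a GFP difference of 0.08 and −1.36 ± 0.16 between the IPs. Eif5a2, a tissue-restricted relative of Eif5a, ranged from −2.12 to −0.07 in the inputs, overlapped between all groups and was not called (0.81 in the GFP IP). With the slide as a block it was higher in the GFP IP (1.31, adjusted p = 0.00311), as it was within slide 1 (0.72) and within slide 2 (1.84), and its other probe, well above background on 6 arrays, gave 3.44.

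**Figure D2:**
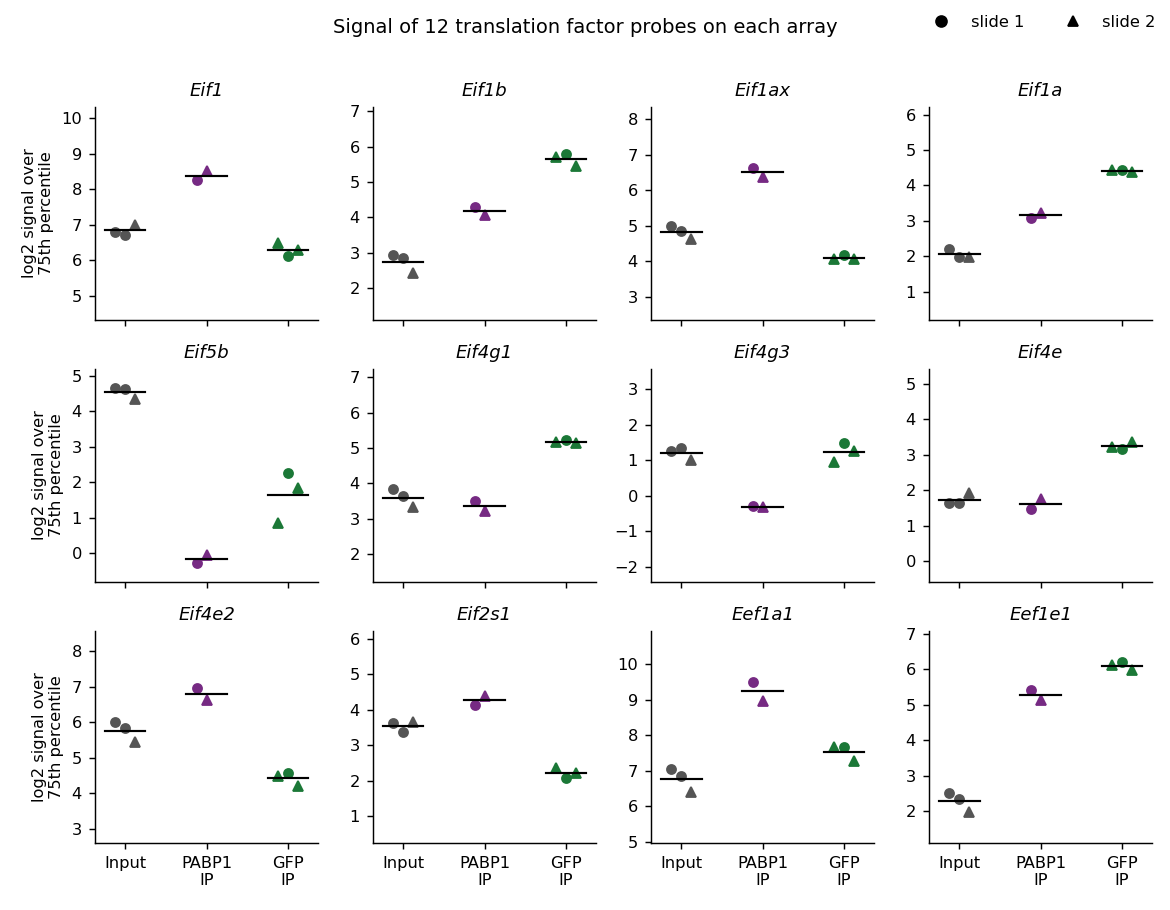
Log2 signal relative to each array's 75th percentile for 12 members on each of the 8 arrays, with circles for slide 1, triangles for slide 2 and horizontal lines at group means. Each panel spans the same range of log2 units; Eif1b, Eif1a, Eef1e1, Eif4g1 and Eif4e are highest in the GFP IPs, Eif1, Eif1ax, Eif2s1, Eif4e2 and Eef1a1 in the PABP1 IPs, and Eif5b in the inputs.

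On their chosen probes, the subunits of eIF2 did not move as 1 unit. Eif2s1 encodes the alpha subunit, whose phosphorylation shuts down initiation under stress. It read 3.64, 3.36 and 3.65 in the inputs, 4.15 and 4.39 in the PABP1 IPs and 2.35, 2.08 and 2.22 in the GFP IPs. The PABP1 IPs lay above and the GFP IPs below all inputs, with differences of 0.72 ± 0.16 (adjusted p = 0.0061) and −1.34 ± 0.14 (adjusted p = 0.000199). Eif2s2, the beta subunit, was lower in the GFP IP (−0.86 ± 0.18), and a second detected probe gave −1.11. In the PABP1 IP these Eif2s2 probes disagreed, at 0.21 for the chosen one and −1.42 for the second. Eif2s3x, the X-linked gamma subunit gene, read 3.60, 3.59 and 3.63 in the inputs, 3.12 and 3.29 in the PABP1 IPs and 5.06, 4.84 and 4.96 in the GFP IPs. Its chosen probe was thus highest in the GFP IPs (1.35 ± 0.11, adjusted p = 7.59e-05) and lowest in the PABP1 IPs (−0.40 ± 0.12, adjusted p = 0.028). The other detected Eif2s3x probes were lower in the GFP IP, at −0.52 and −0.79, so its GFP direction rests on 1 of its 3 detected probes. The PABP1 call was lost without any 1 of the inputs or PABP1 IPs and without GFP IP replicate 3, with values from −0.48 to −0.31. Eif2s3y, the Y-linked copy, read −0.56, −0.08 and 0.72 in the inputs, −0.90 and 0.29 in the PABP1 IPs and −0.43, −1.08 and −0.32 in the GFP IPs. These groups overlapped and Eif2s3y was not called; with the slide as a block it was lower in the GFP IP (−0.96, adjusted p = 0.002).

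The exchange factor eIF2B recharges eIF2 with GTP. All 4 of its tested subunits, of 5 on the array, were lower in the GFP IP than in input, with a median of −1.20 beside −0.51 for all genes; 2 were called with arrays scaled to their medians, where the list median was −0.67. In the PABP1 IP 1 was higher and 1 lower. Eif2b4 read 6.38, 6.16 and 5.92 in the inputs, 5.61 and 5.38 in the PABP1 IPs and 4.32, 4.29 and 4.22 in the GFP IPs. The GFP IPs were the lowest and closest together, at −1.88 ± 0.15 (adjusted p = 6.34e-05), and a second probe gave −0.49. Its PABP1 difference of −0.66 ± 0.16 was lost as a call without PABP1 IP replicate 2 (−0.54), and the second probe there was 0.64 higher. Eif2b2 was −1.81 ± 0.12 in the GFP IP and 0.28 in the PABP1 IP, not called. Eif2b1 was lower in the GFP IP (−0.60) and higher in the PABP1 IP (1.03).

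Of the 4 kinases that phosphorylate eIF2 alpha, 2 were higher and 1 lower in the GFP IP, and 0 were higher and 3 lower in the PABP1 IP. The shares of all tested genes were 21.5% and 43.3%, and 34.3% and 25.3%. Eif2ak3, the PERK kinase of endoplasmic reticulum stress, read 0.20, 0.44 and 0.22 in the inputs, 0.14 and 0.20 in the PABP1 IPs and 1.26, 1.41 and 1.35 in the GFP IPs. It was higher in the GFP IP than in input by 1.05 ± 0.11 (adjusted p = 0.000221). Eif2ak1, the heme-regulated kinase, was 0.55 higher in the GFP IP and had a difference of −0.45 in the PABP1 IP. Eif2ak2, the double-stranded RNA sensor PKR, was lower in both, at −1.0 and −1.79, and was well above background on 1 of 2 PABP1 IP arrays. Eif2ak4, the amino acid sensor GCN2, was called lower in the PABP1 IP (−0.54).

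The 12 subunits of eIF3, the large scaffold on the small ribosomal subunit, were mostly lower in the GFP IP. In all, 10 were lower than in input and 0 were higher, where 43.3% and 21.5% of all tested genes were, and the median was −0.93 beside −0.51 for all genes. With arrays scaled to their medians 6 were lower and 2 higher with a median of −0.40, and with normexp 3 were lower and 0 higher. In the PABP1 IP 4 were higher and 4 lower, beside 34.3% and 25.3% of all tested genes. The first set comprised Eif3f, Eif3h, Eif3i and Eif3k, and the second Eif3a, Eif3b, Eif3c and Eif3d, so subunits of 1 complex stood on both sides of input. The feeder markers that were lower in the GFP IP moved alongside, and their part was not tested.

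Eif3c, a core subunit, read 8.57, 8.41 and 7.84 in the inputs, 6.85 and 6.47 in the PABP1 IPs and 6.29, 6.57 and 6.32 in the GFP IPs. Both IPs lay below every input, by −1.61 ± 0.24 (PABP1, adjusted p = 0.00104) and −1.88 ± 0.22 (GFP, adjusted p = 0.000301), and all 5 of its detected probes were lower in both. Eif3b, which organises the core, was likewise lower in both (−1.78 in the GFP IP, −1.19 in the PABP1 IP). Eif3i read 4.02, 3.84 and 3.52 in the inputs, 6.0 and 5.79 in the PABP1 IPs and 4.23, 4.12 and 4.08 in the GFP IPs. The PABP1 IPs stood 2.11 ± 0.17 above input (adjusted p = 6.98e-05), and the GFP difference of 0.35 was not called, though it was with the slide as a block (0.42, adjusted p = 0.0218). Eif3k read 4.45, 4.33 and 4.13 in the inputs, 6.19 and 6.04 in the PABP1 IPs and 3.81, 3.90 and 3.80 in the GFP IPs. It was high in the PABP1 IPs (1.81 ± 0.14, adjusted p = 5.32e-05), and its GFP difference of −0.47 ± 0.12 turned to 0.068 with arrays scaled to their medians. Eif3a, the largest subunit, had a chosen probe at −0.78 in the PABP1 IP and a second at −5.09.

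In eIF4F and its partners, 4 of 9 were higher and 2 lower in the GFP IP, and 1 was higher and 1 lower in the PABP1 IP. Eif4g1, the main scaffold, read 3.83, 3.64 and 3.32 in the inputs, 3.50 and 3.23 in the PABP1 IPs and 5.16, 5.23 and 5.14 in the GFP IPs. The GFP IPs stood clear of all other arrays, 1.58 ± 0.16 above input (2.98-fold, adjusted p = 0.000159), and the PABP1 IPs overlapped the inputs (−0.23 ± 0.18, adjusted p = 0.297). A second probe was 0.48 higher in the GFP IP and −0.75 in the PABP1 IP. Eif4g3, a second scaffold, read 1.27, 1.34 and 1.01 in the inputs, −0.29 and −0.32 in the PABP1 IPs and 0.96, 1.47 and 1.26 in the GFP IPs. Here the PABP1 IPs were apart and low (−1.51 ± 0.18, adjusted p = 0.000366), the GFP IPs overlapped the inputs, and a second probe gave −1.12 and 0.29. Eif4g2, a scaffold that does not bind eIF4E, read 2.57, 2.29 and 2.37 in the inputs, 2.71 and 2.82 in the PABP1 IPs and 2.76, 2.86 and 2.63 in the GFP IPs. Its GFP difference of 0.34 ± 0.12 (adjusted p = 0.0458) was lost as a call without any 1 array other than input replicate 1, with values from 0.28 to 0.40, and 1 of its other probes was at −0.63.

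Eif4e, which binds the cap, read 1.63, 1.64 and 1.92 in the inputs, 1.47 and 1.75 in the PABP1 IPs and 3.22, 3.17 and 3.37 in the GFP IPs. It was higher in the GFP IPs than in input, by 1.52 ± 0.14 (2.87-fold, adjusted p = 0.000112), and the PABP1 difference was −0.12 ± 0.16 (adjusted p = 0.54). A second detected probe was 0.73 higher in the GFP IP and 0.95 higher in the PABP1 IP. Eif4e2, a cap-binding relative linked to repression, read 6.02, 5.82 and 5.43 in the inputs, 6.95 and 6.61 in the PABP1 IPs and 4.48, 4.58 and 4.21 in the GFP IPs. It ran the other way, −1.33 ± 0.19 in the GFP IP (adjusted p = 0.00084) and 1.03 ± 0.22 in the PABP1 IP (adjusted p = 0.00515), with 1 of its other 3 detected probes at 0.21 in the GFP IP. The helicase genes unwind the mRNA leader. Eif4a2 read 5.26, 5.26 and 4.92 in the inputs, 5.55 and 5.43 in the PABP1 IPs and 5.98, 6.34 and 5.68 in the GFP IPs, 0.85 ± 0.19 above input (adjusted p = 0.00638). Its second detected probe was further above input, by 2.04 in the GFP IP and 1.56 in the PABP1 IP. The PABP1 difference of the chosen Eif4a2 probe, 0.34, was called with the slide as a block (0.40, adjusted p = 0.0332). Eif4a1 read 6.92, 6.75 and 7.04 in the inputs, 7.09 and 7.27 in the PABP1 IPs and 7.16, 6.64 and 6.83 in the GFP IPs. Its GFP IPs overlapped the inputs (−0.02 ± 0.17, adjusted p = 0.908), although quantile normalization gave 0.57.

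The small proteins that hold eIF4E back split 3 ways. Eif4ebp2 was higher in both IPs, by 1.21 ± 0.24 (GFP) and 1.54 ± 0.27 (PABP1). Eif4ebp1, a direct target of mTOR, was higher in the PABP1 IP (1.47 ± 0.28) and was not called in the GFP IP (−0.50). Eif4ebp3 read 3.37, 3.1 and 3.20 in the inputs, 0.97 and 1.09 in the PABP1 IPs and 1.24, 1.21 and 1.39 in the GFP IPs. Every IP array lay below every input, by −2.20 ± 0.14 (PABP1, adjusted p = 2.71e-05) and −1.95 ± 0.12 (GFP, adjusted p = 3.03e-05), and a second probe gave −2.29 and −1.90. Eif4enif1, which carries eIF4E into the nucleus, was not called in either (0.74 in the GFP IP and −0.36 in the PABP1 IP). With the slide as a block it was higher in the GFP IP (0.51, adjusted p = 0.0017) and lower in the PABP1 IP (−0.47, adjusted p = 0.00366), and its other detected probe was at −0.52 and 0.32.

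Ratios within an array do not change under a scaling that shifts every gene of that array alike, such as scaling to the median. Quantile normalization and normexp are not such shifts, and ratios were not taken under them. On the main scaling, ratios were taken for 11 pairs of related members, chosen after the values were seen and so described without a test. The log2 ratio of Eif1b to Eif1 was 3.45 higher in the GFP IPs than in the inputs (SD 0.28 and 0.42, n = 3 each), with no overlap, and −0.11 in the PABP1 IPs, where it overlapped. For Eif1a over Eif1ax the shifts were 3.09 and −0.59, for Eif4e over Eif4e2 2.86 and −1.15, and for Eif2s3x over Eif2s1 2.69 and −1.12. Those 3 pairs carry the probe disagreements given above. Eif4ebp2 over Eif4ebp1 shifted by 1.71 in the GFP IP and overlapped the inputs in the PABP1 IP (0.06). By contrast, Eif4g1 over Eif4g3 was higher in both, by 1.55 and 1.28. Eif5a2 over Eif5a overlapped the inputs in both IPs.

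**Figure D3:**
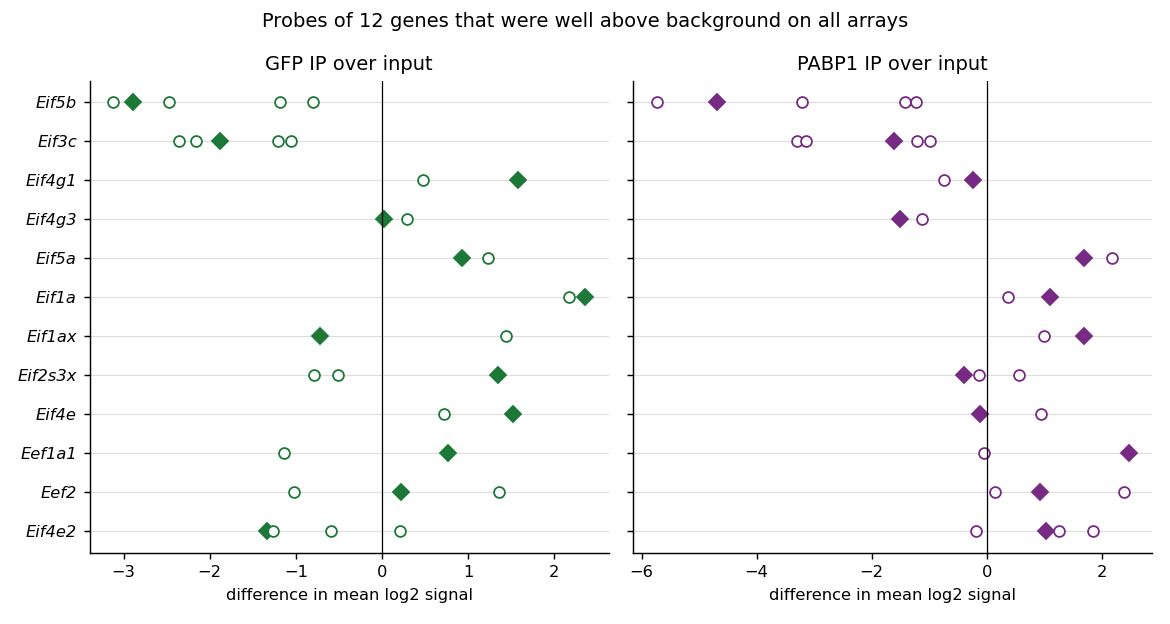
Difference in mean log2 signal from input for every probe of 12 members that was well above background on all 8 arrays, GFP IP at left and PABP1 IP at right. Filled diamonds are the probes that represent the gene and open circles the other probes; all probes of Eif5b and Eif3c lie below 0, whereas those of Eif1ax, Eif2s3x and Eef1a1 lie on both sides of 0 in the GFP IP.

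Across the family, the other detected probes of called members had the sign of the chosen probe in 27 of 35 cases (77.1%) when the GFP IP was set against input, in 24 of 28 (85.7%) for the PABP1 IP and in 23 of 30 (76.7%) between the IPs. Where in the transcript each probe lies was not analysed here.

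The member highest above input in both IPs was named with the elongation factors but is not one of them. Eef1e1, a scaffold of the multi-tRNA synthetase complex that shares its name with the eEF1 factors, read 2.52, 2.36 and 1.97 in the inputs, 5.41 and 5.13 in the PABP1 IPs and 6.13, 6.21 and 5.97 in the GFP IPs. The 3 groups did not overlap. It stood 3.82 ± 0.17 above input in the GFP IP (14.2-fold, adjusted p = 1.48e-05) and 2.99 ± 0.19 in the PABP1 IP (7.94-fold, adjusted p = 3.07e-05), on 1 probe. The 7 tested members of the elongation group include Eef1e1 and Eef2k. Of these 7, 2 were higher and 4 lower in the GFP IP, and 4 were higher and 1 lower in the PABP1 IP. Eef1e1 is among the higher ones in both counts. The lower one in the PABP1 IP was Eef2k, the kinase that inactivates eEF2, at 1.52, 1.76 and 1.79 in the inputs, 0.72 and 0.71 in the PABP1 IPs and 0.92, 0.87 and 0.96 in the GFP IPs. All IP arrays were below all inputs, by −0.98 ± 0.13 (PABP1, adjusted p = 0.000531) and −0.78 ± 0.11 (GFP, adjusted p = 0.000903).

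Eef1a1, which delivers aminoacyl-tRNA, read 7.06, 6.84 and 6.40 in the inputs, 9.50 and 8.98 in the PABP1 IPs and 7.66, 7.68 and 7.27 in the GFP IPs. The PABP1 IPs were far above the rest (2.47 ± 0.26, 5.54-fold, adjusted p = 0.000183), and the GFP IPs lay just above the inputs (0.77 ± 0.23, adjusted p = 0.0219). That GFP call was lost without input replicate 3, GFP IP replicate 1 or GFP IP replicate 2, with values from 0.58 to 0.70. The other detected Eef1a1 probe was at −1.13 in the GFP IP and −0.05 in the PABP1 IP. Eef2, the translocase, read 6.94, 6.77 and 6.22 in the inputs, 7.76 and 7.37 in the PABP1 IPs and 6.77, 7.09 and 6.74 in the GFP IPs. It was higher in the PABP1 IP (0.92 ± 0.25, adjusted p = 0.0153, and 0.72 without PABP1 IP replicate 1, where the call was lost) and overlapped the inputs in the GFP IP (0.22 ± 0.22, adjusted p = 0.401). With the slide as a block Eef2 was called higher in the GFP IP (0.37, adjusted p = 0.0153). The other Eef2 probes stood at 1.35 and −1.03 in the GFP IP and at 2.38 and 0.14 in the PABP1 IP, so the GFP direction for Eef2 depends on the probe. The accessory subunits Eef1d and Eef1g were lower in the GFP IP, by −1.43 ± 0.14 and −0.88 ± 0.12.

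Known from the literature on translation control, 9 members are classed as TOP mRNAs: Eef1a1, Eef1b2, Eef1d, Eef1g, Eef2, Eif3e, Eif3f, Eif3h and Eif4b. RefSeq's promoter table (build GRCm38.p6) held 5 of the 9. Their annotated starts are shown because the motif that defines the class begins at the first base of the mRNA. Each line is 30 bases on the gene's strand, 15 before the annotated start and 15 from it on, with a run of 8 or more C or T near the start in capitals; Eef1a1 is on the minus strand at chr9:78481710-78481739, Eif3f on the plus strand at chr7:108934400-108934429, Eef1b2 on the plus strand at chr1:63176816-63176845, Eef2 on the plus strand at chr10:81176616-81176645 and Eif4b on the plus strand at chr15:102073758-102073787.
Eef1a1: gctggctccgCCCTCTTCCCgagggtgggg
Eif3f: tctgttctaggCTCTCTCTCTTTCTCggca
Eef1b2: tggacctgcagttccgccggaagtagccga
Eef2: tataaaaggccgggcgttgacgtcagcggt
Eif4b: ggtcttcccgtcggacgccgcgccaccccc
A run was counted where it reached into the stretch from 3 bases before to 8 bases after the annotated start, on the gene's strand. It was found in 2 of these 5 windows, in 10 of the 44 members with an entry and in 9.49% of all 32851 promoters. A member was counted if any of its entries had the run, whereas the 9.49% counts single entries, so these shares are not alike. Both marked runs begin before the annotated start and pass it, so a run counted here is not by itself a TOP motif. An annotated start can differ from the start used in these cells, and a window without the run says only that these letters are not there.

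The IPs differed from each other on the TOP members. In the GFP IP against the PABP1 IP, 14 of the 53 members were higher and 25 lower, where 23.9% and 47.4% of all tested genes were, with a member median of −0.59 beside −0.67. Quantile normalization gave 22 higher and 12 lower members. All 9 TOP members were lower and 0 higher, with a median of −1.48. Against input, the GFP IP was below for 7 of the 9 and above for 1, beside 43.3% and 21.5% of all tested genes. The PABP1 IP was below input for 0 and above for 5, beside 25.3% and 34.3%. These counts use chosen probes. For Eif4b, lower in the GFP IP than in input (−1.06), the other detected probes were at 0.22 and 0.21 there. Between the IPs they were at −0.02 and −0.37, beside −0.70 for the chosen one. The TOP result between the IPs depends on the scaling: 6 were lower with arrays scaled to their medians or to the 75th percentile of detected probes, 5 with normexp, and under quantile normalization 1 was lower and 1 higher, with a median of −0.05. With the slide as a block all 9 were lower. Of the feeder markers 15 of 17 were lower in the same comparison, and their part in the TOP result was not tested. The 44 tested members outside the TOP list had 14 higher and 16 lower, with a median of −0.28. Pabpc1, Tpt1 and Rack1 are 3 TOP mRNAs that the rule does not name. Between the IPs Tpt1 was lower (−2.15), and Pabpc1 (−1.08) and Rack1 (−0.92) were not called. With the slide as a block all 3 were lower.

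Eif3f, the TOP member with the longest pyrimidine run above, read 6.07, 5.92 and 5.69 in the inputs, 7.70 and 7.73 in the PABP1 IPs and 5.40, 5.24 and 5.30 in the GFP IPs. It was high in the PABP1 IPs and lowest in the GFP IPs, with −2.40 ± 0.15 between the IPs (5.26-fold lower, adjusted p = 1.46e-05). Against input it was 1.82 ± 0.15 in the PABP1 IP (adjusted p = 6.19e-05) and −0.58 ± 0.13 in the GFP IP (adjusted p = 0.00661), a GFP call that median scaling ended (−0.041). Eef1a1 was −1.70 ± 0.26 between the IPs, and its other probe, which lay on the other side of input in the GFP IP, gave −1.09. The probes of Eef2 were −0.70, −1.03 and −1.17 between the IPs. The call on the first of these (adjusted p = 0.0381) was lost without input replicate 2, PABP1 IP replicate 1, GFP IP replicate 1 or GFP IP replicate 3, with values from −0.70 to −0.50, and quantile normalization turned it to 0.67.

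**Figure D4:**
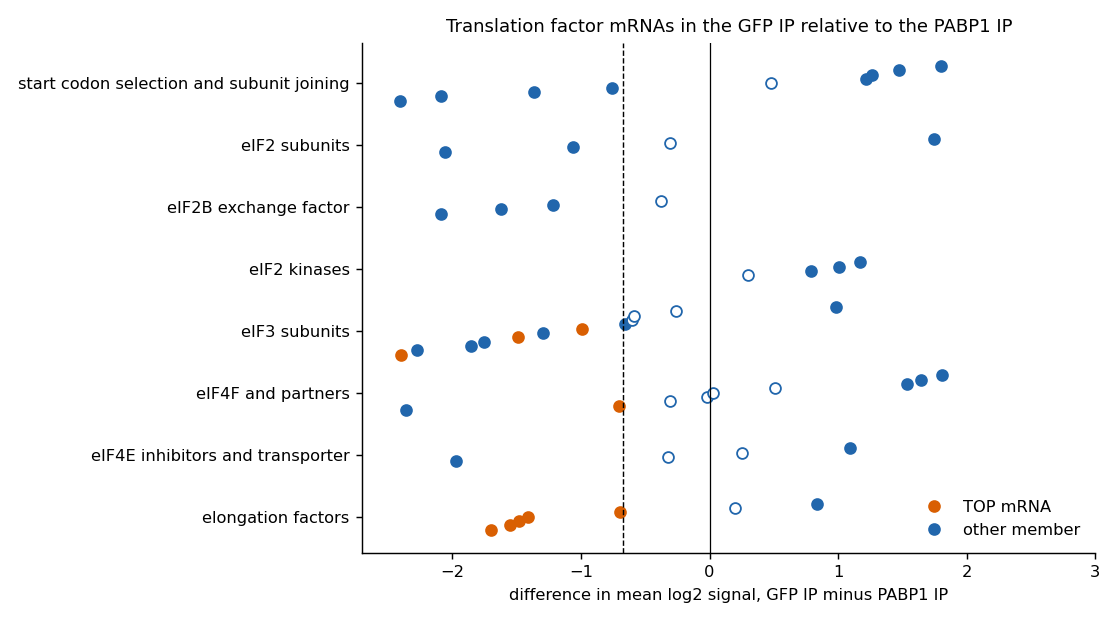
Difference in mean log2 signal between the GFP IP and the PABP1 IP for the 53 tested members by role, with TOP mRNAs in orange, filled points for an adjusted p under 0.05 and a dashed line at the median tested gene (−0.67). Points within a role are offset vertically only to keep them apart. All 9 TOP members lie left of the dashed line on this scaling, and under quantile normalization 1 of them was called lower.

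Members outside the TOP list were found at both ends of the comparison between the IPs. The 5 highest were Eif4g1 (1.81 ± 0.18), Eif5b (1.80 ± 0.38), Eif2s3x (1.75 ± 0.12), Eif4e (1.64 ± 0.16) and Eif4g3 (1.54 ± 0.18). The other detected probes were at 1.23 for Eif4g1, 1.41 for Eif4g3 and from 0.05 to 2.62 for Eif5b. Those of Eif4e (−0.22) and Eif2s3x (−0.66 and −1.07) had the other sign. The lowest were Eif1ax (−2.41 ± 0.15, with its other probe at 0.44), Eif4e2 (−2.36 ± 0.22), Eif3k (−2.27 ± 0.14), Eif1 (−2.09 ± 0.17) and Eif2b2 (−2.09 ± 0.13). The other detected Eif4e2 probes were at −2.43, −2.52 and 0.40. By role, 3 of the 4 eIF2 kinases were higher and 0 lower in the GFP IP than in the PABP1 IP, whereas 8 of 12 eIF3 subunits and 3 of 4 eIF2B subunits were lower, beside 23.9% higher and 47.4% lower over all tested genes. The eIF3 count was 3 lower and 3 higher under quantile normalization, with a median of −0.01.

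Genes of the same pathway that the rule does not name were counted from a list of 37, of which 36 were tested. In the GFP IP 8 were higher and 16 lower than in input (21.5% and 43.3% of all tested genes), with a median of −0.55 beside −0.51, close to the background. In the PABP1 IP 14 were higher and 8 lower (34.3% and 25.3% of all tested genes). Between the IPs 8 were higher and 19 lower in the GFP IP (23.9% and 47.4%). Paip1, Paip2 and Paip2b, which encode proteins that bind poly(A)-binding protein, were picked from this list after their values were seen. Paip1 was 1.82 and 1.08 above input in the GFP and PABP1 IPs, Paip2 1.65 and 2.09, and Paip2b 1.51 and 1.03. Rps6kb1, the S6 kinase downstream of mTOR, was 0.79 above input in the GFP IP and −2.06 in the PABP1 IP. Ppp1r15b, which directs the dephosphorylation of eIF2 alpha, was at 1.72 and −0.91. The mitochondrial initiation factor Mtif2 was lower in both (−2.39 and −1.50), and the mitochondrial elongation factor Tufm was lower in the GFP IP (−1.87). A further 6 factors carry names that fit the rule only in their current form. Eif6, which keeps ribosomal subunits apart, was −1.48 ± 0.13 in the GFP IP and 0.03 in the PABP1 IP. Of these 6, the GFP IP was below input for 5 and above it for 0, 4 were higher and 0 lower in the PABP1 IP, and all 6 were lower between the IPs.

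The authors' deposited table of group means matched 21 members by a unique accession. In the authors' deposited table the sign was the one found here for 19 of them when the GFP IP was set against input, for 21 with the PABP1 IP and for 19 in the comparison of both IPs. The authors' deposited table put the member medians at −0.016, 0.51 and −0.85, beside −0.0026, 0.39 and −0.31 over its 9410 matched genes, and it gave Eef1e1 4.42 and 3.06 above input in the GFP and PABP1 IPs and Eif1b 3.51 and 1.52.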

How the data were processed

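Each of the 8 one-colour (Cy3) Agilent arrays carried 1 sample. Feature Extraction 9.1.3.1 made the authors' intensity values, per the file headers, with protocol GE1-v5_95_Feb07, which subtracted background, removed spatial trends and gave dim spots a surrogate. The deposited files also hold spot flags (other values). A deposited table gives the authors' group mean intensities, with a scaling that no source used here states.

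Here log2 intensity minus each array's 75th percentile was used. Spots of a probe were averaged (41174 probes, 30 left out for outlier spots), the brightest probe stood for a gene, and 14745 of 27949 genes entered the test, those well above background on all arrays of 1 or more groups. limma 3.58.1 in R 4.3.3 (with the data.table package, version 1.17.8) was fitted over all 8 arrays (lmFit and eBayes, 5 residual and 2.10 prior degrees of freedom), with Benjamini-Hochberg adjustment over all tested genes at 0.05. Errors are standard errors. The fit was tested on simulated data. Figures used matplotlib 3.10.9 in Python 3.11.15.

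Members and lists were chosen with earlier results of these data known. Named in full were the 4 highest and 4 lowest called members of each comparison and a list of central factors. Arrays of different groups deviated together from their group means where they shared a slide (r 0.44 to 0.77), and not where they shared only a replicate number, so numbers were not taken as pairs. Alternatives were other scalings, quantile normalization, normexp (offset 50), filters, the mean of a gene's probes, the slide or replicate number as a block, single slides and leaving out each array. The number of arrays limits the precision.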

Additional observations from a re-analysis of the deposited data

How the results depend on the processing

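For the GFP IP over input, scaling to the median gave 14 lower members and a member median of 0.036, quantile normalization a median of −0.085, the 75th percentile of detected probes −0.33, slide 2 alone −0.33 and the authors' deposited table −0.016, and normexp called 3 higher and 7 lower. For the PABP1 IP over input, the median was −0.37 under quantile normalization, −0.030 with detected probes, 0.40 with normexp and 0.51 in the authors' deposited table; normexp called 10 higher and 2 lower, and slide 2 alone 7 lower. Between the IPs, the median was −0.13 with median scaling, 0.30 with quantile normalization, −0.19 with detected probes, −0.47 when centred on the tested genes, −0.90 with normexp, −0.31 with a gene's probes averaged and −0.85 in the authors' deposited table. Quantile normalization called 22 higher and 12 lower there, and normexp 1 higher. Medians from the authors' deposited table cover only its 21 matched members, so they compare with those 21 and not with all 53. For those 21, the main fit gave −0.58 with the GFP IP against input and 0.38 with the PABP1 IP against input. With the GFP IP against the PABP1 IP it gave −1.36, which is lower than the −0.85 of the authors' deposited table. Leaving out 1 array gave 12 to 15 higher, 25 to 28 lower and medians of −0.52 to −0.40 (GFP IP over input), 17 to 21, 8 to 14 and 0.088 to 0.29 (PABP1 IP over input), and 12 to 14, 21 to 27 and −0.66 to −0.40 (between the IPs). The lowest PABP1 median, 0.088, came without input replicate 3. With the slide as a block the counts were 18 higher and 28 lower, 21 and 18, and 17 and 30, and no call was lost for the members named in full. With a replicate block they were 14 and 27, 19 and 14, and 14 and 24.

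Of 1620 alternative values for the 27 members named in full, 11 were reversed, 105 lost the call and 40 gained one. Reversed were Eif3k with median scaling (0.068) and, under quantile normalization, Eif4a1 (0.57), both in the GFP IP over input. When probes of a gene were averaged, Eef1a1 (−0.18), Eif1ax (0.36) and Eif2s3x (−0.19) were reversed in the GFP IP over input, and Eif2s3x (−0.021) between the IPs. The Eif2s3x averages include a probe that was well above background on 0 of 8 arrays, so these reversals do not rest on measured probes alone. Also between the IPs, quantile normalization reversed Eef2 (0.67), Eif3c (0.90), Eif4a1 (1.01) and Eif5a (0.57), and detected probes Eif4g2 (0.38). The cause was not tested. Under every setting run on the arrays, 7 of 22 called members named in full kept the call in the GFP IP over input, 10 of 21 in the PABP1 IP over input and 9 of 20 between the IPs. Normexp, fitted on signals before the scanner software's detrending, ended 36 of the calls, slide 2 alone 10 and median scaling 8.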
